A study of Mus musculus with 8 samples.

Results

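The 10 genes described here encode proteins that act on histones, or on their removal, while the round spermatid turns into a sperm head: Cdyl, Kdm3a, Kdm4d, Chd5, Kat5, Kat8, Epc1, Dot1l, Psme4 and Hdac1. They were chosen by name, and every probe set (a group of short probes read together) annotated with 1 of the 10 symbols was taken, which gave 21 of 45037 probe sets and 10 of 18193 named genes on the array. Of the 21, 19 had a mean intensity above the 40th percentile of all probe sets and were tested. The other 2, 1 of Epc1 and 1 of Psme4, were below it. Where a gene has several probe sets they are lettered by mean intensity, A being the brightest, and the plots give the array's own identifiers. The compared groups were whole testes of 4 mice labelled Brwd1-/- (mutant) and of 4 mice titled wild type, all aged 27 days and untreated, with 1 array per mouse. The labels disagree on the controls, whose genotype entry reads Brwd1+/-, so the controls may be heterozygous. The word wild type below follows the titles. The labels do not say what the mutant allele is or whether mice share a litter, so p-values rest on the variation between these mice alone. Fits with a block, described below, first take out the variation between the blocks. Intensities are on a linear scale in arbitrary units as the authors deposited them.

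In a round spermatid the genome is wrapped around histones. During elongation the histone tails, mainly of H4, are heavily acetylated, nucleosomes are opened, acetylated histones are degraded, and transition proteins and then protamines take their place. Acetyltransferases and their scaffolds (Kat5, Epc1, Kat8), a methyltransferase of the nucleosome core (Dot1l), demethylases of histone H3 lysine 9 (Kdm3a, Kdm4d), a remodeller (Chd5), a chromodomain protein (Cdyl), a deacetylase (Hdac1) and a cap of the proteasome (Psme4) have each been placed in or before this exchange, mostly by studies of mutant mice. Brwd1 itself encodes a bromodomain protein, a class that binds acetylated histones.

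Of the 10 genes, 1 differed between genotypes, and only on 1 of its 3 probe sets: Cdyl was lower in mutants in fits with a block and not in the fit without one. The blocks were the replicate number (replicate block) and the division of replicates 1 and 2 from 3 and 4 (split block). No other member passed in any of the 3 fits. For Psme4 and Kat5 the larger difference ran between replicates 1 and 2 and replicates 3 and 4 of both genotypes. Without a block 0 of 19 probe sets had an adjusted p under 0.05 (limma, Benjamini-Hochberg over 27022 probe sets), where 0.115% of all probe sets did, and 1 of 19 had an unadjusted p under 0.05, where 7.43% did. Under the replicate block 1 of 19 passed, lower in mutants, against 2.39% of all probe sets (2.18% lower), and with the split block also 1 of 19, against 1.79% (1.48% lower). Of the 19 log2 differences 13 were negative and 6 positive, with a median of -0.08, and the median over all probe sets tested was 0.07.

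None of the 4 tested Brwd1 probe sets passed in any of the 3 fits, with log2 differences between -0.28 and 0.31, and whether their probes lie in an altered part of the transcript is not given in the sources used here. Replicates 1 and 2 stood apart from replicates 3 and 4 on 40.9% of all probe sets, and no label explains this. Summed over 4 epididymis markers the intensity was 124 to 252 in replicates 1 and 2 and 30988 to 37771 in replicates 3 and 4. Markers of pachytene spermatocytes were present on every array, with summed intensities of 55149 to 62520 in mutants and 53299 to 63133 in wild type over 6 genes. Those of elongating spermatids summed to 4399 to 29714 in mutants and 80978 to 143183 in wild type over 10 genes, and germ cells of the testis were thus measured in both groups. In the elongating spermatid sum mutant replicate 1 was the lowest of all 8 mice.

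Cdyl encodes a chromodomain protein that binds methylated histone H3, recruits repressors and, in mouse spermatids, lowers crotonylation of histones through an enoyl-CoA hydratase activity. Its gene lies on chromosome 13 and has 2 separate start regions in RefSeq (assembly GRCm38.p6), 81600 bases apart. Both are shown because the Cdyl probe sets disagree and because transcripts from different starts are 1 way in which probes of a gene can read different molecules. Each line gives 250 bases before and 50 after a start, 5′ to 3′ on the plus strand. Capitals mark the GC box, spelled GGGCGG, on either strand. The other letters searched, on both strands, were the core of the cAMP response element to which factors such as CREM bind, TGACG, and its full form TGACGTCA, which holds that core on each strand. The CCAAT box is named by its letters, and the TATA element was searched as TATAA.
Cdyl upstream start, chr13:35659612-35659911: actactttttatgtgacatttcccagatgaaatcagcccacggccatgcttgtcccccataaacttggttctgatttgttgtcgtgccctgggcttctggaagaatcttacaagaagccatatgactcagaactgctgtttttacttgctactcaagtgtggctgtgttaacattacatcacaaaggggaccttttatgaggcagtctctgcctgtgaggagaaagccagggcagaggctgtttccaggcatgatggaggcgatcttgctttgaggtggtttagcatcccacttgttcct
Cdyl downstream start, chr13:35741212-35741511: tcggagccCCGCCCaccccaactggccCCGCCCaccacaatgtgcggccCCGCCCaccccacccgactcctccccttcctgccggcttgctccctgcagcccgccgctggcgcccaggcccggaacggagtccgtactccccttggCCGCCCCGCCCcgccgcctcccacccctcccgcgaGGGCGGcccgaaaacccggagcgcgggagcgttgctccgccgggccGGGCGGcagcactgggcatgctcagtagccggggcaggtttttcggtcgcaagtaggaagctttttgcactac
The upstream window had a GC content of 47.0%, 3 CG dinucleotides and no match to any of these motifs. The downstream window had a GC content of 73.7%, 32 CG dinucleotides and 7 GC box matches, 2 of which overlap, and none of the other motifs. Of 32851 windows of the same length, 35.7% held a GC box, 37.4% a CCAAT box, 24.9% a TATA element, 20.8% the CREM core and 1.79% its full form. One more Cdyl window overlaps the downstream one. The files do not say which start the probe sets read, and the annotation ties all 3 to the same GenBank record.

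Probe set A of Cdyl read 307, 1188, 833 and 1054 in mutant replicates 1 to 4, against 2759, 3678, 3020.2 and 1941 in wild-type replicates 1 to 4. All 4 mutants lay below all 4 wild-type mice, and mutant replicate 1 was the lowest, at 307 against 833 in the nearest mutant. The means were 846 ± 388 in mutants and 2849 ± 718 in wild type (SD, n = 4 each). On the log2 scale (intensity + 16) mutant minus wild type was -1.86 (SE 0.40, 95% interval -2.75 to -0.96). Limma's adjusted p was 0.127 in the fit with no block, 0.0212 under the replicate block and 0.0432 under the split block. With mutant replicate 1 left out the log2 difference was -1.44 (limma, adjusted p = 0.0513), and -1.38 when the split block was also used (limma, adjusted p = 0.00216). Without a block, no fit that left out 1 mouse called Cdyl A (limma, adjusted p from 0.0513 to 0.444, log2 differences of -2.07 to -1.44). Replicates 1 and 2 alone gave -2.36 and replicates 3 and 4 alone -1.35, and neither passed (limma, adjusted p = 0.188 and 0.0708). In bulk testis fewer cells of a type and less RNA per cell cannot be told apart.

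**Figure D1:**
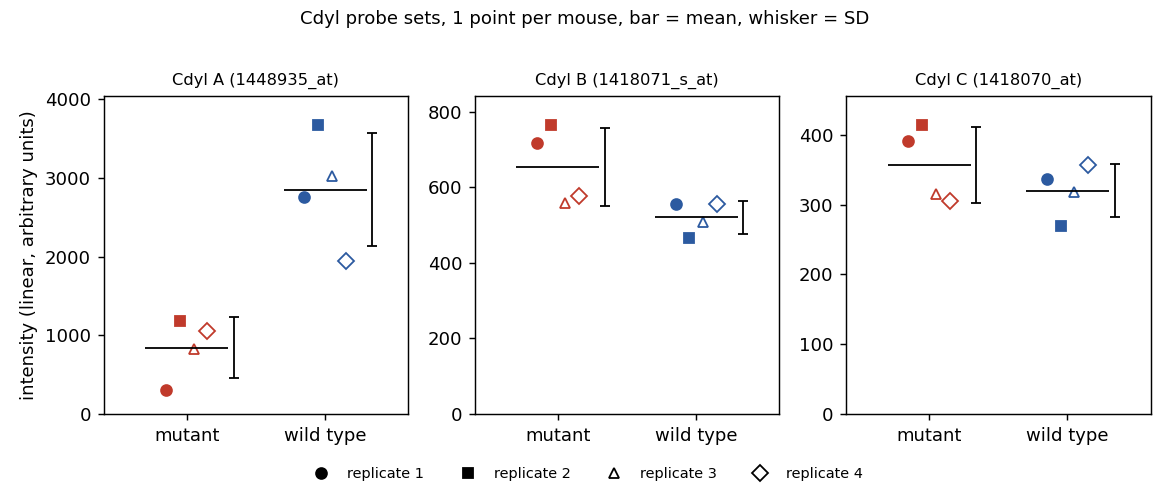
Intensity (linear, arbitrary units) of the 3 Cdyl probe sets in mutant and wild-type testes. Each point is 1 mouse, its shape the replicate number, the bar the mean and the whisker the SD of 4 mice. The panel of probe set A shows mutants between 307 and 1188 and wild type between 1941 and 3678, while the genotypes lie close together in the panel of probe set C.

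The other Cdyl probe sets were not lower in mutants. Probe set B read 717, 766, 559 and 576 in mutants, against 555.1, 465, 509 and 555.2 in wild type. Its identifier ends in a suffix that marks probes that match several transcripts, as do those of Kat8, Kat5 B and Psme4 A. All 4 mutants lay above all 4 wild-type mice, by little: mutant replicate 3 exceeded the highest wild-type mouse by under 1%. Its log2 difference of 0.31 (95% interval -0.04 to 0.66, and 0.018 to 0.605 with the split block) did not pass. The adjusted p was 0.778 with no block, 0.386 under the replicate block and 0.310 under the split block (limma). Probe set C read 392, 414, 314 and 305 in mutants, against 337, 269, 317 and 357 in wild type, with overlapping groups. Its log2 difference was 0.14 (limma, adjusted p = 0.999), and it was -0.11 within replicates 3 and 4. Of the 19 member probe sets 2 had genotypes that did not overlap, Cdyl A lower and Cdyl B higher, where 6.1% of all probe sets did not overlap (3.83% lower and 2.26% higher).

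Tested against the other probe sets of its own gene (limma's diffSplice), Cdyl A differed from the other Cdyl probe sets by -2.08 log2 units (SE 0.35; limma, adjusted p = 0.0119 over 15495 probe sets of 5864 genes). The same difference passed with the replicate block (limma, adjusted p = 0.0177) and with the split block (limma, adjusted p = 0.0111). Of all probe sets tested this way 0.0904% passed with no block, 0.484% under the replicate block and 0.568% under the split block. The disagreement of Cdyl was known from earlier results of these arrays and was the reason for the test, which gives its size and no separate evidence. The test also treats the probe sets of a gene as independent with a shared spread, although the same mice gave them all. Its SE is therefore not that of differences taken within each mouse. Within each mouse, Cdyl B minus Cdyl A averaged -0.21 ± 0.94 log2 units in mutants and -2.38 ± 0.49 in wild type (SD, n = 4 each). The call was lost without wild-type replicate 1, 2 or 3 (limma, adjusted p from 0.120 to 0.174, with differences of -1.89 to -2.12) and with median centring (limma, adjusted p = 0.0559). No other member with several tested probe sets (Kat5, Epc1, Dot1l and Psme4) had a probe set that passed. With each gene read by its brightest probe set and p adjusted over genes, Cdyl was the 1 of 10 members called under either block (limma, adjusted p = 0.0249 with the replicate block and 0.0441 with the split block), where 3.5% and 2.69% of all genes were called. With no block 0 of 10 were called, where 0.333% of all genes were (limma, adjusted p = 0.0935 for Cdyl). When the 3 Cdyl probe sets were averaged the log2 difference was -0.47 and was not called (limma, adjusted p = 0.305 with no block, 0.151 under the replicate block, 0.143 under the split block).

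**Figure D2:**
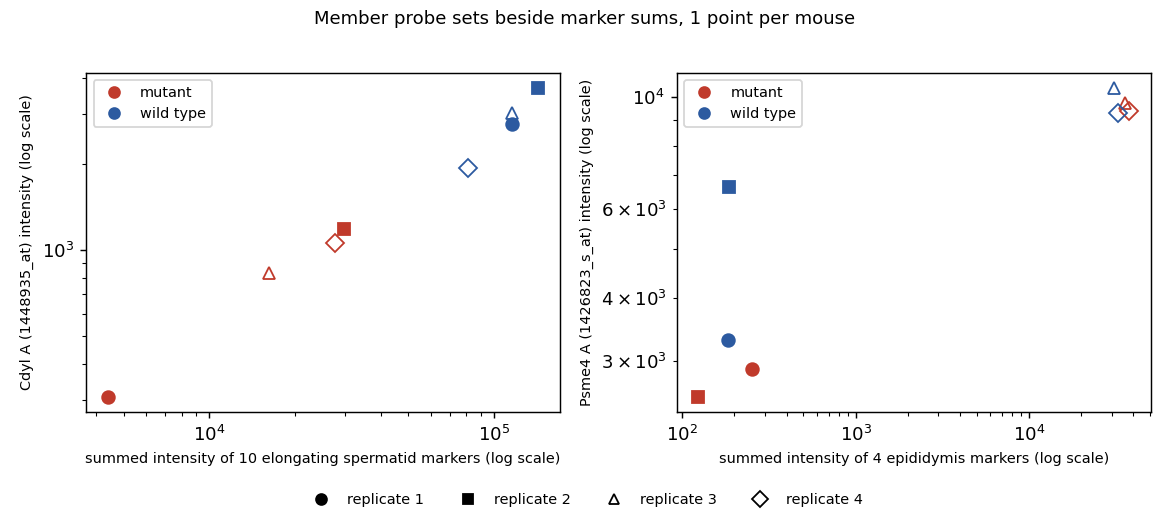
Left, Cdyl A against the summed intensity of 10 elongating spermatid markers; right, Psme4 A against the summed intensity of 4 epididymis markers, all axes logarithmic and 1 point per mouse. Cdyl is lowest in mutant replicate 1 (307, marker sum 4399) and highest in wild-type replicate 2 (3678, marker sum 143183), and wild-type replicate 2 shows a Psme4 value of 6638 at an epididymis sum of 186.

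The summed intensity of the 10 elongating spermatid markers was lower in mutants, as Cdyl A was. Of the 10 markers, 4 are the transition proteins Tnp1 and Tnp2 and the protamines Prm1 and Prm2, which take the place of histones. The summed intensities of all 10 in mutant replicates 1 to 4 were 4399, 29714, 16185 and 27638, against 115979, 143183, 115938 and 80978 in wild type. Cdyl A had the same lowest and highest mouse within each genotype as this sum. That did not hold for every single marker. Tnp1, Akap4, Gapdhs and Smcp were highest among mutants in replicate 4. Among wild-type mice Akap4 and Smcp were lowest in replicate 1, and Smcp was highest in replicate 3. Without those 4 genes the other 6 markers summed to 2842, 14878, 11067 and 15557 in mutants, against 33875, 47659, 40887 and 26878 in wild type, and there mutant replicate 4 was the highest mutant. No marker of this list was at 0, the lowest being Tssk6, a spermatid kinase, at 8.89 in mutant replicate 1. The 5 measured round spermatid markers of 6 summed to 1799 to 9444 in mutants and 10173 to 14773 in wild type. The part of these cell types in the Cdyl difference was not tested. On their brightest probe sets Tnp1, Tnp2, Prm1 and Prm2 had log2 differences of -3.32, -4.26, -3.28 and -4.17, larger than that of any Cdyl probe set. Of these, Prm2 passed without a block (limma, adjusted p = 0.0376) and all 4 passed with the replicate block (limma, adjusted p from 0.00753 to 0.0170). The other tested Prm1 probe sets gave -3.51 and -3.04. A dimmer Tnp1 probe set gave only -0.67, smaller than Cdyl A (limma, adjusted p = 0.301 with no block, 0.0692 under the replicate block, 0.0444 under the split block).

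The genes whose pattern over the 8 arrays lay closest to Cdyl A were Cep295nl, Atl3, Asb15, Atp1a4 and Abhd2, by the root mean square difference of mean-centred log2 values among 23407 named probe sets. That difference was 0.08 log2 units for Cep295nl and for Atl3, 0.10 for Asb15, 0.11 for Atp1a4, which encodes the sodium pump subunit of the sperm tail, and 0.11 for Abhd2. Between genotypes the log2 difference was -1.78 for Cep295nl, -1.84 for Atl3, -1.88 for Asb15, -1.997 for Atp1a4 and -1.94 for Abhd2, against -1.86 for Cdyl A, which chose them.

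**Figure D3:**
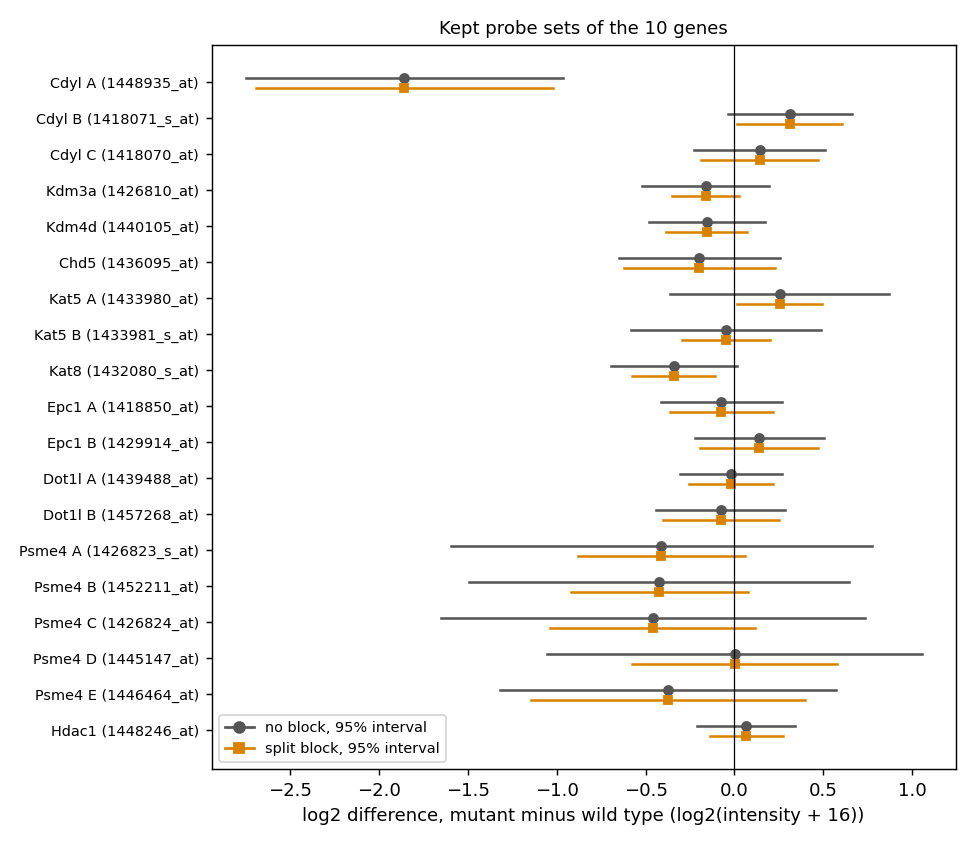
Log2 difference, mutant minus wild type, of the 19 tested probe sets with its 95% interval (grey circles, no block; orange squares, the split block). Cdyl A lies at -1.86 with an interval below 0, the other 18 intervals without a block include 0, and those of Psme4 are the widest. With the split block the intervals of Cdyl B and Kat5 A lie above 0 and that of Kat8 below it.

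The demethylases of histone H3 lysine 9 had 1 probe set each and were not called. Kdm3a removes mono- and dimethyl marks and is needed in mice for expression of Tnp1 and Prm1. It read 3921, 3762, 5593 and 5167.5 in mutants, against 4401, 4982, 5343 and 5709.6 in wild type. The groups overlapped, mutant replicates 1 and 2 were the lowest mice, and the log2 difference was -0.16 (95% interval -0.52 to 0.20, limma, adjusted p = 0.999). Kdm4d removes the trimethyl mark and is abundant in spermatids. It read 2204, 2792, 2186 and 1914 in mutants, against 2825, 2576, 2307 and 2374 in wild type. Mutant replicates 1, 3 and 4 were below all wild-type mice and mutant replicate 2 was not, with a log2 difference of -0.16 (95% interval -0.48 to 0.17, limma, adjusted p = 0.999).

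Chd5, a nucleosome remodeller of neurons and spermatids whose loss impairs histone removal in mice, was a dim signal. It read 148, 263, 189 and 211 in mutants, against 205, 255, 197 and 272 in wild type. Mutant replicate 1 was the lowest mouse and the groups overlapped, with a log2 difference of -0.20 (95% interval -0.65 to 0.26, limma, adjusted p = 0.999). Without mutant replicate 1 it was -0.0675.

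Kat8, the acetyltransferase of histone H4 lysine 16, came next to the threshold among the uncalled members. It read 2868, 3854, 2811 and 2795 in mutants, against 4428, 4287, 3723 and 3178 in wild type. Mutant replicates 1, 3 and 4 were below all wild-type mice and mutant replicate 2 lay among them. The means were 3082 ± 515 in mutants and 3904 ± 572 in wild type (SD, n = 4 each). The log2 difference was -0.34 (95% interval -0.70 to 0.01). The adjusted p was 0.701 with no block, 0.180 under the replicate block and 0.160 under the split block (limma), where the 95% interval was -0.58 to -0.11. The difference was negative in all 22 alternatives run.

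**Figure D4:**
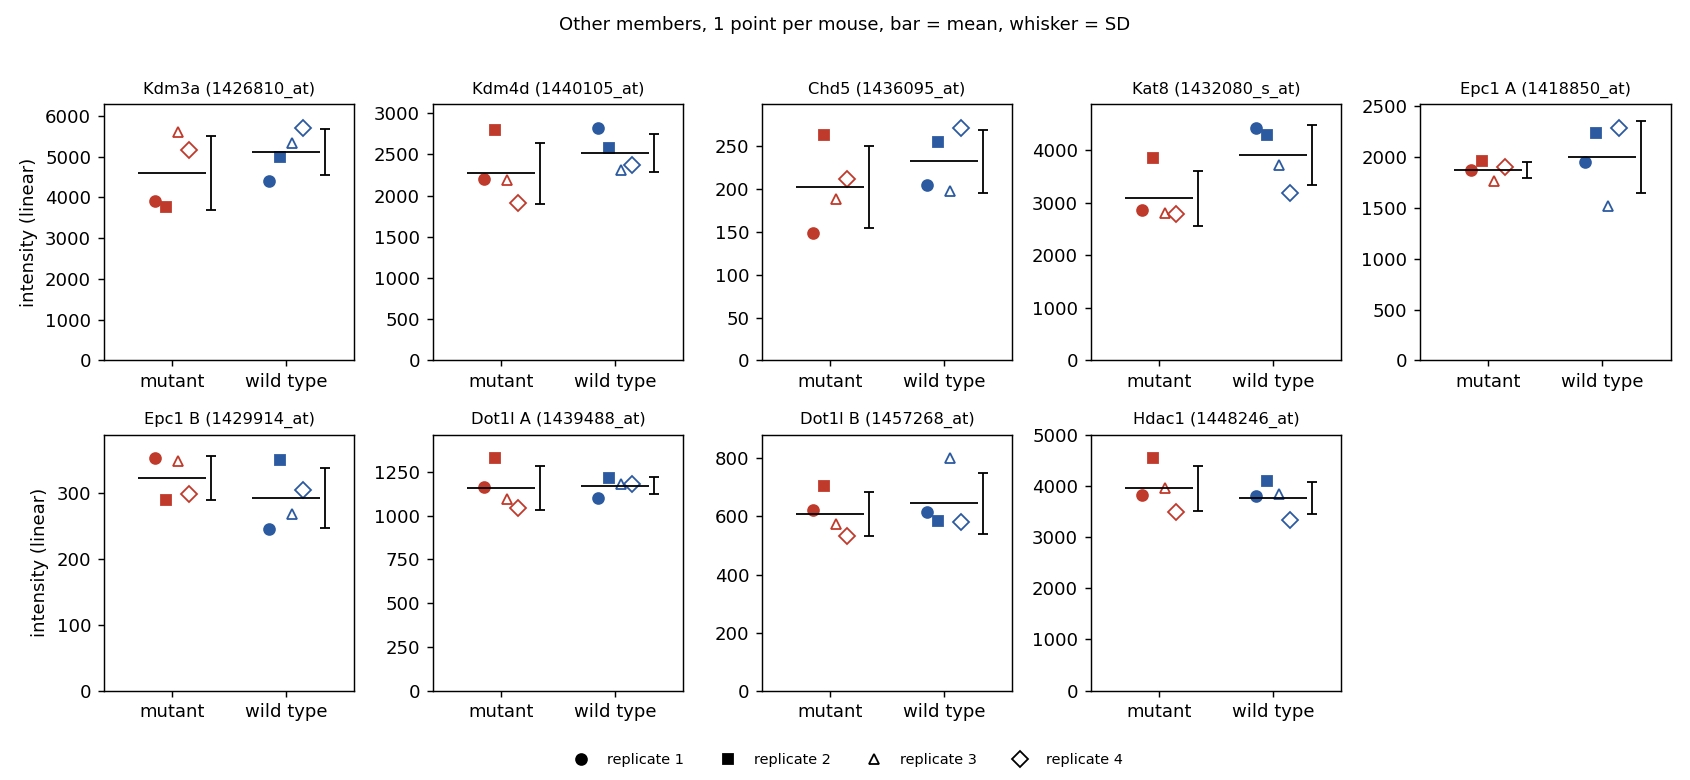
Intensity (linear, arbitrary units) of the probe sets of Kdm3a, Kdm4d, Chd5, Kat8, Epc1, Dot1l and Hdac1 in mutant and wild-type testes. Each point is 1 mouse, its shape the replicate number, the bar the mean and the whisker the SD of 4 mice. Genotypes overlap in every panel, and Kat8 shows 3 of 4 mutants below all wild-type mice.

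Epc1, a scaffold of the Kat5 acetyltransferase complex that spermatids of mice need for histone H4 acetylation, did not differ beyond its spread. Probe set A read 1872, 1954, 1766 and 1905 in mutants, against 1952, 2232, 1518 and 2286 in wild type, so the mutants lay within the wild-type range. Its log2 difference was -0.07 (95% interval -0.41 to 0.27). Probe set B read 354, 289.5, 349 and 299 in mutants, against 247, 351, 268 and 305 in wild type, with a log2 difference of 0.14 (95% interval -0.22 to 0.50). Both had a limma adjusted p of 0.999. Probe set C lay below the filter, at 0.67 to 7.43 in mutants and 4.36 to 16.9 in wild type, and was not tested.

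Dot1l, which methylates a lysine in the core of histone H3, showed no call on either probe set. Probe set A read 1167, 1330.3, 1098 and 1044 in mutants, against 1101, 1215, 1181 and 1184 in wild type. The wild-type values lay within the range of the mutants, and the log2 difference was -0.02 (95% interval -0.30 to 0.27). Probe set B read 624, 706, 574 and 532 in mutants, against 616, 584, 802 and 579.9 in wild type, with wild-type replicate 3 above the rest. Its log2 difference was -0.08 (95% interval -0.44 to 0.29), and both probe sets had a limma adjusted p of 0.999.

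Hdac1, a deacetylase that works against the acetylation wave, read 3828, 4546, 3951 and 3496 in mutants, against 3807, 4085, 3836 and 3333 in wild type. The groups overlapped almost fully, with a log2 difference of 0.07 (95% interval -0.21 to 0.34, limma, adjusted p = 0.999).

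Kat5, the catalytic subunit of the TIP60 acetyltransferase complex, differed by replicate split more than by genotype. Probe set A read 3120.2, 3910.3, 2219 and 2013 in mutants, against 3286, 2662, 1777 and 1722 in wild type. Replicates 3 and 4 were the low mice in both genotypes, by a log2 difference of -0.74 (limma, adjusted p = 0.000840). Between genotypes the difference was 0.25 (95% interval -0.36 to 0.87, and 0.02 to 0.49 with the split block; limma, adjusted p = 0.999 and 0.306). Probe set B read 2642, 3008, 1750.3 and 1607 in mutants, against 2789.7, 2490.3, 2108 and 1741 in wild type. Its log2 difference between the replicate pairs was -0.60 (limma, adjusted p = 0.00236), and between genotypes -0.05 (95% interval -0.58 to 0.49).

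Psme4 encodes PA200, the proteasome cap that recognises acetylated histones and is needed for their degradation in spermatids. Probe set A read 2895, 2549.9, 9704 and 9357 in mutants, against 3299, 6638, 10385 and 9262 in wild type. Replicates 3 and 4 were high in both genotypes, replicate 1 was low in both, and replicate 2 was low in the mutant and intermediate in wild type. Probe set B read 2446, 1804, 6726 and 6574 in mutants, against 2708, 5261, 6541 and 6808 in wild type. Probe set C read 765, 679, 2778 and 2652 in mutants, against 974, 2132, 2524 and 2664 in wild type. In both, replicates 3 and 4 were again high, and mutant replicates 1 and 2 and wild-type replicate 1 were low. Over the 3 probe sets the log2 difference of replicates 3 and 4 from replicates 1 and 2 was 1.43, 1.24 and 1.36 (limma, adjusted p = 0.000902, 0.00220 and 0.00281).

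**Figure D5:**
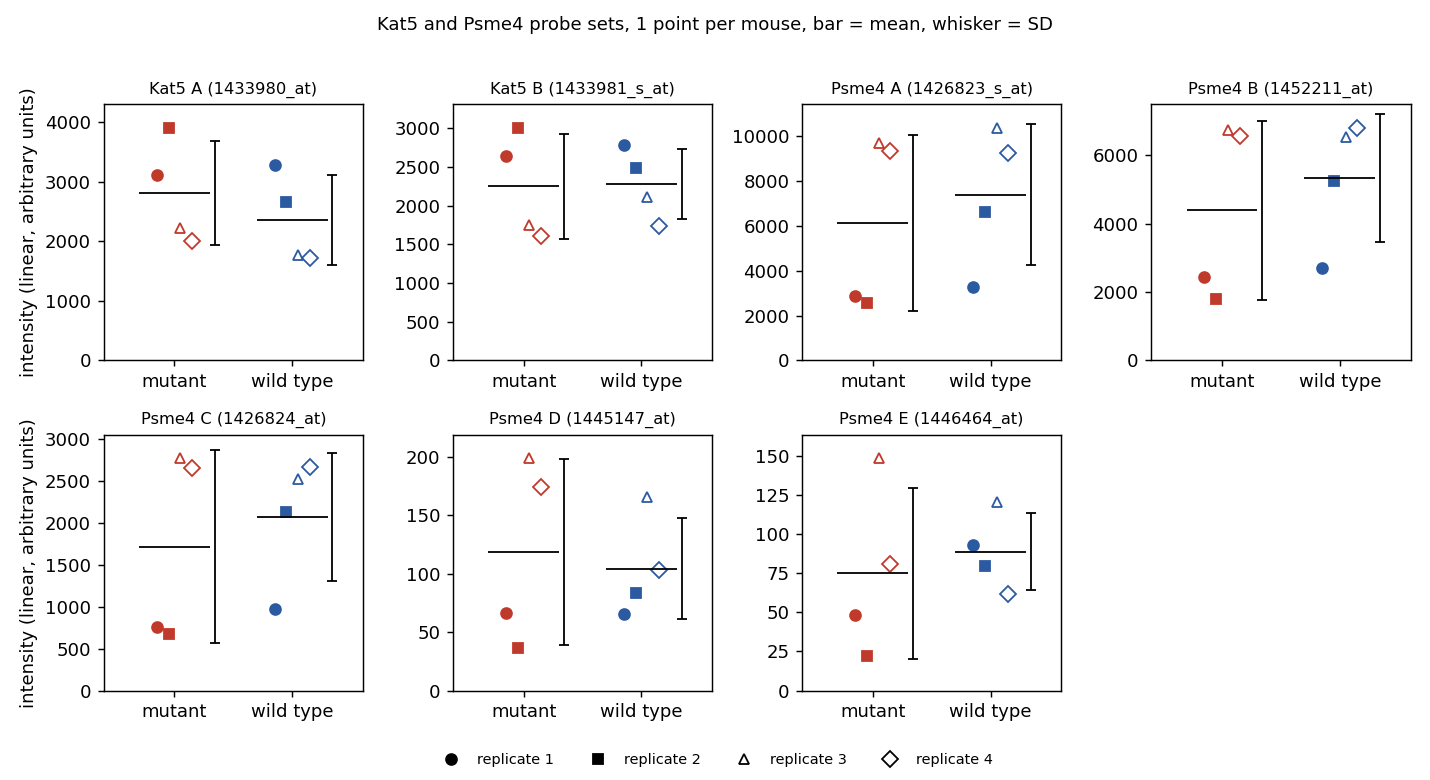
Intensity (linear, arbitrary units) of the tested Kat5 and Psme4 probe sets in mutant and wild-type testes. Each point is 1 mouse, its shape the replicate number (filled for 1 and 2, open for 3 and 4), the bar the mean and the whisker the SD of 4 mice. Open points are the low ones for Kat5 and the high ones on the 3 bright Psme4 probe sets, in both genotypes.

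Between genotypes the log2 differences of the same 3 Psme4 probe sets were -0.41, -0.42 and -0.46, with 95% intervals from -1.65 to 0.77 (limma, adjusted p = 0.999 each, and 0.409 to 0.455 with the split block). Dropping 1 mouse without a block moved them, to -0.0802, -0.0745 and -0.12 without mutant replicate 2 and to -0.76, -0.72 and -0.79 without wild-type replicate 1. Such a fit makes the replicate split uneven between genotypes, so the shift is not that of the mouse alone. Without mutant replicate 1 they were -0.14, -0.22 and -0.17 with no block, and -0.37, -0.43 and -0.39 with the split block. In replicates 1 and 2 alone they were -0.78, -0.84 and -0.98, and in replicates 3 and 4 alone -0.04, -0.0050 and 0.07. The test of that change, the interaction of genotype with the replicate split, did not pass for any member (limma, lowest adjusted p = 0.789), nor for any of the 27022 probe sets, of which 5.25% had an unadjusted p under 0.05. The dim probe sets D (36.2 to 199 in mutants, 65.9 to 166 in wild type) and E (22.4 to 149 in mutants, 61.6 to 120.1 in wild type) were not called either, with log2 differences of 0.00 and -0.37. Probe set F lay below the filter at 5.37 to 42.1 in mutants and 8.95 to 40.6 in wild type. The epididymis markers given above were higher in the same replicates as Psme4, while wild-type replicate 2 had 6638 on Psme4 A at an epididymis sum of 186, against 3299 in wild-type replicate 1 at 184. Their part in the Psme4 values was not tested.

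In all, 8 of 19 member probe sets differed between the replicate pairs, where 40.9% of all probe sets did. Of the 8, 5 were higher in replicates 3 and 4 (Kdm3a and Psme4 A to D), where 23.3% of all were, and 3 lower (both of Kat5, and Kat8), where 17.6% of all were. The share is near that of the array as a whole. For Kdm3a the log2 difference was 0.36 (limma, adjusted p = 0.00774), and for Kat8 -0.29 (limma, adjusted p = 0.0489). Of the 18 probe sets not called between genotypes, 13 had a 95% interval within 1 log2 unit of 0 without a block, and the 5 of Psme4 did not.

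Partners and relatives of the 10 genes were read from 12 lists holding 167 entries. Of these 159 had a probe set with a single symbol and 156 genes were tested, each gene by its brightest probe set. Without a block none of the 156 passed (limma), where 0.188% of all 13795 genes did, and 3 had an unadjusted p under 0.05, where 9.56% of all genes did. With the replicate block 2 of 156 were called, both lower, where 3.49% of all genes were called (3.22% lower). With the split block 1 of 156 was called, lower, where 2.62% of all genes were (2.19% lower). Their median log2 difference was 0.05, and that over all 13795 genes was 0.07. By list the median ran from -0.06 to 0.15. No gene was called in any of the 3 fits among 15 tested genes of the TIP60 complex, 11 of the MSL and NSL complexes that hold Kat8, 11 other acetyltransferases, 14 deacetylases, 15 partners of Hdac1, 19 demethylases, 8 other CHD remodellers, 6 partners of Dot1l, 11 methyltransferases of histone H3 lysines 9 and 27 and their partners (with the Cdyl relative Cdyl2), 12 ubiquitin enzymes and acetyl-lysine readers, and 14 histone chaperones. The smallest p in these lists belonged to Trrap, Msl2, Naa40, Sirt6, Mta3, Kdm6b, Chd8, Mllt6, Ehmt1, Ube2a and Anp32b, with log2 differences between -0.26 (Ube2a) and 0.52 (Msl2).

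The calls among relatives lay in the proteasome list, 2 of 20 genes with the replicate block and 1 with the split block, beside the shares of all genes just given. The list as a whole had 5 negative and 15 positive log2 differences, with a median of 0.09. Psme3, the cap protein PA28 gamma, read 984, 1326, 801 and 859 in mutants on its brighter tested probe set, against 1848, 2448, 1943 and 1208 in wild type. Mutant replicate 2 exceeded wild-type replicate 4, and the other mutants lay below all wild-type mice. Its log2 difference was -0.88 (limma, adjusted p = 0.218 with no block, 0.0217 under the replicate block, 0.0375 under the split block), while its other tested probe set gave 0.11 and was not called. Psma6, a subunit of the proteasome core, read 5370, 6006, 6036 and 6235 in mutants on its brightest probe set, against 7586, 9363, 8713 and 7028 in wild type, without overlap. Its log2 difference was -0.46 (limma, adjusted p = 0.190 with no block, 0.0427 under the replicate block, 0.0533 under the split block), and 2 other probe sets gave -0.41 and -0.19, not called. Psma8, the core subunit particular to the testis, singled out after its values were seen, averaged 9053 ± 466 in mutants and 9130.1 ± 312 in wild type (SD, n = 4 each). Brdt, the testis bromodomain protein that binds acetylated histone H4, singled out likewise, averaged 3110 ± 737 in mutants and 3271 ± 361 in wild type (SD, n = 4 each), and neither was called.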

How the data were processed

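RNA of whole testis from 8 mice was measured on 1-colour Affymetrix arrays. The deposited intensity values are on a linear scale, and the submitters' processing notes name GCOS. No GCOS version or setting is stated. The trimmed mean, without the lowest and highest 2% of values, averaged 500 over the 8 arrays, and the array medians were 90.7 to 124. Detection calls were not used, which leaves the background of dim probe sets unknown, and the number of arrays limits precision.

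Of 45101 probe sets 64 controls were left out. Symbols came from the platform annotation (34945 probe sets with 1 symbol, 932 with several, 9160 with none) and were updated through Entrez identifiers for 34741. Values were taken as log2(value + 16), which understates the change of dim genes. The filter kept the 27022 probe sets whose mean exceeded the 40th percentile, 67.1. Genotypes were compared with limma 3.58.1 (R 4.3.3; lmFit, eBayes with an intensity trend, two-sided, Benjamini-Hochberg, threshold 0.05), without a block, with the replicate number as a block, and with the split of replicates 1 and 2 from 3 and 4 as a block (split block; no label names a batch). Probe sets of a gene were compared with limma's diffSplice. Deviations from the genotype means correlated in all 4 same-numbered pairs (r between 0.519 and 0.618). Pairs of unlike number were not compared, and the replicate split alone can make same-numbered mice correlate. The values thus do not show pairing by number beyond the split, and no label gives it. The limma fit was tested on simulated data. Members were all shown. Of each list of relatives, called genes were named, up to 4, or else the gene with the smallest p. The members and lists were chosen with earlier results of these data known. Figures were drawn with matplotlib 3.10.9.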

Additional observations from a re-analysis of the deposited data

Results flagged for a closer look

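Among 42 groups of 4 mice (21 probe sets in 2 genotypes), 2 held a mouse far from the other 3 by Dixon's criterion, and chance flags about 1 group in 20. Kat8 was high in mutant replicate 2, at 3854 against 2868 in the nearest mutant, a gap of 0.931 of the range. Without that mouse the log2 difference of Kat8 was the largest among the fits that left out 1 mouse, at -0.45. Dot1l B was high in wild-type replicate 3, at 802 against 616 in the nearest wild-type mouse, a gap of 0.837 of the range, and without that mouse its log2 difference was 0.03.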

How the results depend on the processing

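Over 22 alternatives the member probe sets gave 0 calls except for 1 call (Cdyl A) with the replicate block, with the split block, with the split block and without mutant replicate 1 (log2 difference -1.38), and with the replicate block on numbers 2 to 4 (-1.44), the last chosen after seeing the data. The replicate block changed no other member's call. Counted by gene, with the highest-mean probe set, 1 of 10 members was called with either block and 0 without, where 3.5%, 2.69% and 0.333% of all genes were called with the replicate block, the split block and no block. Over all probe sets the count was 31, and 646 with the replicate block, 485 with the split block, 701 with the split block and without mutant replicate 1, 540 with the replicate block on numbers 2 to 4, 58 with pseudocount 64, 0 within replicates 1 and 2, and 0 to 119 as each mouse was left out. The genes of the related lists and of the exchange products together gave 1 call (Prm2), and 9, 6, 9 and 9 under those 4 blocked fits, 2 with pseudocount 64, 0 with pseudocount 1, 0 within replicates 1 and 2, 3 within replicates 3 and 4, and 0 to 6 as each mouse was left out. Leaving out a mouse without a block makes the replicate split uneven between genotypes. Leaving out 1 mouse at a time gave a Cdyl disagreement of -2.30 to -1.62, and with median centring it was -2.08 at an adjusted p of 0.0559 (limma).

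Of 416 alternative values of single member probe sets, 387 kept their direction and side of the threshold, 4 (all Cdyl A) became calls and 25 changed sign, none of them a call, on 8 of 19 probe sets. Psme4 D, at 0.0011 in the fit without a block, gave -0.0398 with quantile normalization, -0.0403 with median centring, -0.0373 with pseudocount 1, -0.0403 with the split block without mutant replicate 1, -0.0031 with the replicate block on numbers 2 to 4, -0.46 within replicates 1 and 2, and -0.30 to 0.38 when 1 mouse was dropped. Within replicates 1 and 2, Kat5 B gave 0.10, Dot1l A 0.11 and Dot1l B 0.14. Within replicates 3 and 4, Cdyl C gave -0.11, Psme4 C 0.0657 and Psme4 E 0.29. When 1 mouse was dropped, Kat5 B lay between -0.20 and 0.10, Dot1l A between -0.0848 and 0.0303, Dot1l B between -0.15 and 0.0298, and Hdac1 between -0.00073 and 0.13. The cause of these changes was not tested. Dropping 1 mouse without a block called none of the 19 probe sets, Cdyl A included (limma, adjusted p from 0.0513 to 0.444 for Cdyl A). Among the other 18 the lowest adjusted p was 0.330, for Kat8 (limma). These fits, in which the replicate split is uneven, did move the size of several, those of Chd5 and Psme4 among them. No alternative of the interaction test called a member.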
